A study of Mus musculus with 12 samples.

Results

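The genes described here are the cAMP and heterotrimeric G protein signalling genes of the mouse hippocampus: adenylyl cyclases, protein kinase A subunits, A-kinase anchoring proteins, phosphodiesterases, G protein alpha, beta and gamma subunits, and regulators of G protein signalling. They were chosen by symbol, taking Adcy, Pde, Akap, Rgs, Gng or Gnb followed by a digit and every symbol that starts with Prkac, Prkar, Gnai, Gnao, Gnaq or Gnas. This gave 64 of the 8252 genes that had a probe set of their own, and each gene was represented by the brightest of its probe sets over all arrays. Of the 64, 44 passed the filter on dim signal and were tested. The symbols bring in some genes of other function: Pde4dip encodes the anchoring protein myomegalin, Pde6d encodes a chaperone of prenylated proteins, and Gnasas1 is an antisense RNA of the Gnas locus. Adcy1, Akap5, Pde4d and Prkar2b, which are well known in hippocampal cAMP signalling, were not analysed here.

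The RNA came from bitransgenic VC mice, in which withdrawal of doxycycline (dox) from the diet switches on VP16-CREB, a CREB fused to a viral activation domain that is active without phosphorylation, and from wild-type mice kept in the same way. Whole hippocampus of wild-type mice filled n = 2 arrays. The others held hippocampus from VC mice kept on dox (n = 1), from VC mice 1 week (n = 2), 2 weeks (n = 2) and 5 weeks (n = 1) off dox, and from VC mice that spent 3 weeks off dox and then 2 weeks back on it (n = 1, reversed). Microdissected CA1, the hippocampal field that receives the CA3 input, was taken once from wild-type mice (n = 1) and in separate samples from VC mice 3 weeks off dox (n = 2). Each hippocampal sample pooled 6 to 10 mice of the same genotype and time, so the spread measured is between pools, and neither the age nor the sex of the mice is used here. Wild-type and on-dox hippocampus together are called never induced (n = 3), and 1, 2 and 5 weeks off dox together are called induced (n = 5).

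In this pathway a receptor activates a G protein, whose alpha subunit and beta-gamma pair then act on enzymes and channels. Gs, the product of Gnas, stimulates adenylyl cyclases to make cAMP, and the Gi and Go proteins oppose it or signal through their beta-gamma pairs. cAMP releases the catalytic subunits of protein kinase A from the regulatory ones, phosphodiesterases break cAMP down, anchoring proteins place the kinase, and RGS proteins shorten the life of active alpha subunits. In hippocampal neurons the kinase phosphorylates CREB, and this pathway is known for its part in the late phase of long-term potentiation.

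Signals are on the log2 scale after every array was brought to the same trimmed mean, with a floor of 6.04 below which no level was read. Correlations of log2 signal between arrays were 0.93 to 0.98 within hippocampus, 0.91 to 0.95 within CA1 and 0.83 to 0.92 between them. Of the Creb1 probe sets, the one that separated the groups most clearly (102672_g_at) read 6.04 to 6.33 on the never-induced arrays, 8.31 to 9.63 on the induced arrays and 7.10 on the reversed array, and in CA1 it read 6.04 in wild type against 8.86 and 9.56 in VC. All 7 arrays labelled as off dox at sampling therefore lay above the 4 arrays of uninduced mice. The reversed sample is called wild type in its description and VC in its title, and it was kept apart from every other group. Of the marker lists, the CA1 marker Pou3f1 was higher in CA1 than in hippocampus (limma, adjusted p below the threshold), and the dentate marker Dsp and 3 of 5 tested choroid plexus markers (Ttr, Kl and Folr1) were lower. In this comparison 35.9% of all probe sets passed. The arrays of the regions overlapped for the other tested CA1 markers, Wfs1 and Man1a, and for the other tested dentate markers, Tdo2, Lct and Calb1. Of 8 tested endothelial and pericyte markers 4 were higher in CA1 (Vwf, Cdh5, Cldn5 and Flt1; median of the list 0.56), and of 14 tested microglia markers 4 were higher (Laptm5, Csf1r, C1qc and Ly86) and 1 lower (Cx3cr1). The part of these cell types in the regional differences given further on was not tested. In such bulk RNA, fewer cells of a type and less RNA per cell cannot be told apart.

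VP16-CREB acts through the cAMP response element, so the promoters of the members were searched for it in the RefSeq table of the build GRCm38.p6, which runs from 250 bases before to 50 bases after each start. Of the 64 members, 49 had an entry, with 89 promoters. The full palindrome TGACGTCA stood in 2 of these 89 promoters (2.25%), against 1.79% of all 32851 promoters. Both are overlapping promoters of Prkar1a that hold the same palindrome, so per gene it is 1 of 49 (2.04%), against 2.03% of all genes. The 5-base core TGACG, which every palindrome also holds, was read on both strands and stood in 23 of the 89 (25.8%) against 20.8% of all promoters. Counted per gene, 19 of 49 members (38.8%) had a core in at least 1 promoter, against 23% of all genes, but the members had more promoters each. The stretches below show the palindrome and, as examples, 3 of the 19 members with a core, each read 5′ to 3′ on the gene's own strand, with the motif in capitals (a core on the other strand reads as CGTCA).
Prkar1a, chr11:109650860-109650947, plus strand, palindrome 49 to 42 bases before the start: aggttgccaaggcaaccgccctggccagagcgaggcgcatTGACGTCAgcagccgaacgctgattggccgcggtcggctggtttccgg
Adcy7, chr8:88282924-88282991, plus strand, core 28 to 24 bases before the start: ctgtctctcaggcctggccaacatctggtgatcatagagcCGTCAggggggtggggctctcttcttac
Pde4b, chr4:102421481-102421554, plus strand, core 34 to 30 bases before the start: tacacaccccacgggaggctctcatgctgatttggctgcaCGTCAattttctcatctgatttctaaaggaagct
Rgs2, chr1:144004172-144004374, minus strand, 2 cores between 185 and 63 bases before the start: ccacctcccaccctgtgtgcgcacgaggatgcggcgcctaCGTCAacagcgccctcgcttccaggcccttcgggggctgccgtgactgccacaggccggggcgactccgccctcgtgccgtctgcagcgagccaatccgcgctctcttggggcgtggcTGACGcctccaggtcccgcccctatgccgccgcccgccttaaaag
A match is a description of the letters and not a binding site. Among tested members, the average effect of VP16-CREB over both regions had a median of -0.09 in the 16 with a core, of which 5 were positive, and of -0.04 in the 21 without one, of which 10 were positive. Prkar1a, which encodes the RI alpha regulatory subunit and carries the palindrome, read 14.41 to 14.51 on the never-induced arrays and 14.32 to 14.56 on the induced ones, and these ranges overlapped.

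With VP16-CREB on, 1 of the 44 tested members, Adcy7, passed as higher, in CA1 and in the average over both regions but not in hippocampus alone. It entered the test only through 2 arrays of induced mice, and its call depended on the processing, as given below. With all arrays and these settings no other member passed the test in any comparison of induced with uninduced mice. In hippocampus, 0 of 44 members passed an adjusted p of 0.05 in limma between induced and never-induced arrays, against 0.0283% of all 7069 probe sets tested. An unadjusted limma p under 0.05 was found for 2 members (4.55%), against 3.15% of all probe sets. In CA1, 1 of 44 passed between VC and wild type, against 0.467% of all, and in the average of the 2 effects 1 of 44 passed, against 0.311% of all. The induction effect differed between CA1 and hippocampus for 0 of 44 members in limma, against 0.0566% of all. There 3 members (6.82%) had an unadjusted limma p under 0.05, against 5.81% of all. The members' median difference was -0.04 in hippocampus, -0.13 in CA1 and -0.08 in the average, beside medians of -0.02 for all probe sets in each of these. The induced and never-induced arrays did not overlap for 2 members, Adcy7 and Gnai3, or 4.55% of the 44, against 3.37% of all probe sets. With eBayes run with trend and robust settings the counts were 0 in each of these 4 comparisons.

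**Figure D1:**
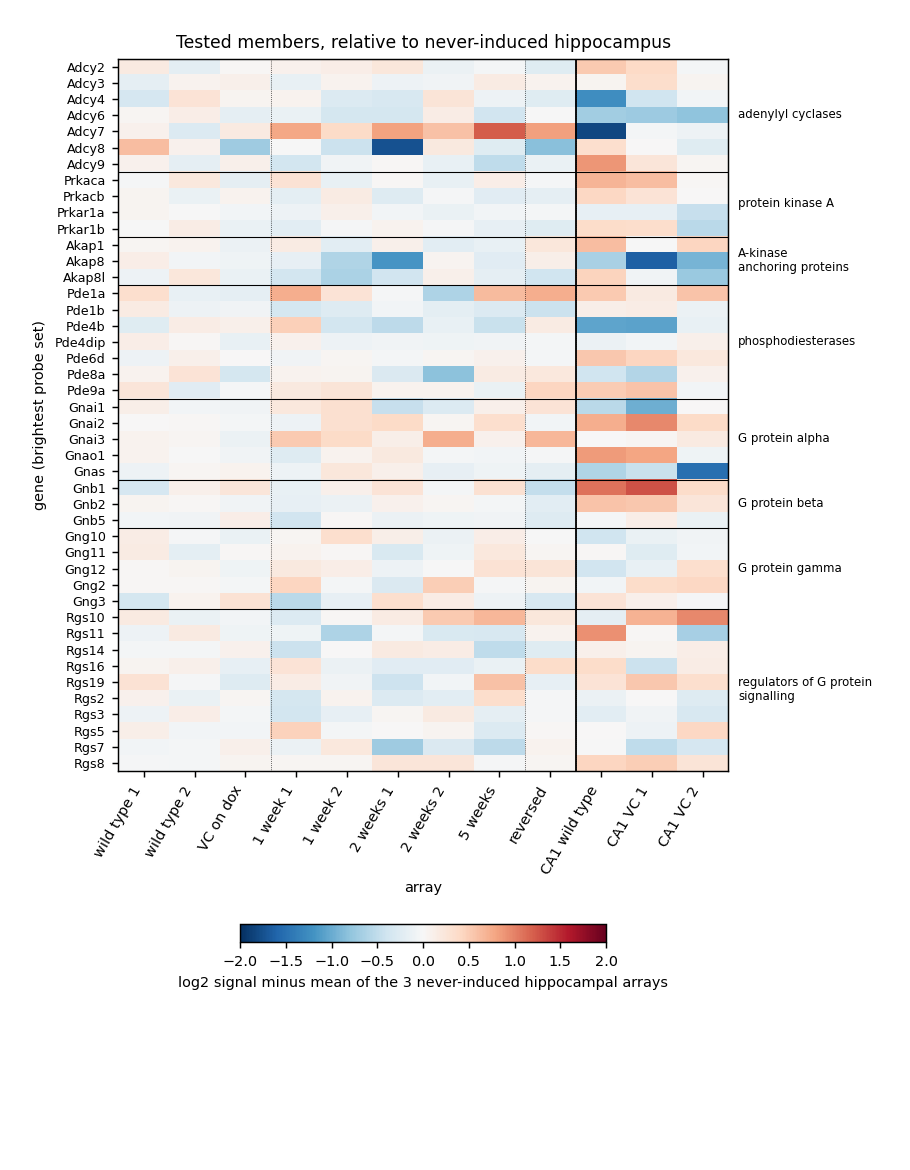
Log2 signal of the 44 tested members (rows, by family) on each of the 12 arrays (columns), as the difference from the mean of the 3 never-induced hippocampal arrays, with red above and blue below it. Adcy7 is red on all 5 induced arrays and on the reversed array, and most other rows stay pale until the 3 CA1 arrays to the right of the solid line.

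Among the cyclases, Adcy7 (probe set 103392_at), a calcium-insensitive cyclase that beta-gamma pairs enhance and that is prominent in blood and immune cells, was higher with VP16-CREB. Its signal was 7.93 and 7.58 in wild-type hippocampus and 8.04 in VC mice on dox. After dox withdrawal it was 8.62 and 8.24 (1 week), 8.66 and 8.44 (2 weeks) and 9.06 (5 weeks). The wild-type CA1 array was at the floor of 6.04, and the CA1 VC arrays were at 7.82 and 7.74. Every induced array lay above every never-induced one, and both VC arrays of CA1 lay above the wild-type array.

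In CA1 Adcy7 rose by 1.74 ± 0.31 on the log2 scale (SE; 95% interval 1.06 to 2.43; limma, adjusted p = 0.0446), an estimate of 3.35-fold. This estimate takes the wild-type array at the floor, below which its level was not read. The average over both regions was 1.25 ± 0.18 (limma, adjusted p = 0.0334), the sixth smallest p of all probe sets. In hippocampus alone the mean went from 7.85 ± 0.24 (SD, n = 3) to 8.60 ± 0.30 (SD, n = 5), a difference of 0.75 ± 0.18 (SE) that did not pass (limma, adjusted p = 0.999). The effect in CA1 minus that in hippocampus was 0.99 ± 0.36 (limma, adjusted p = 0.725), so a difference between the regions was not shown.

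The probe set entered the test through 2 arrays of induced mice, 2 weeks array 1 and 5 weeks, which alone lay above the median of their arrays. With no filter its adjusted p was 0.0290 in CA1 and 0.0114 in the average. Without either of those arrays, and with a filter that asked for 6 arrays, Adcy7 was not tested. In CA1 the call rests on a single wild-type array. Adcy7 did not pass there with 50 added in place of the floor, with trend and robust settings, with the values as deposited, with a block for the deposited scale, or without any 1 of CA1 VC arrays 1 and 2, wild-type arrays 1 and 2, VC on dox, 1 week array 1 or 2 weeks array 2. In the average it did not pass under the same 4 changes of processing, or without any 1 of wild-type arrays 1 and 2, VC on dox or 2 weeks array 2. The sign was positive under each of these settings in which Adcy7 was tested.

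The microglia markers moved on some of the same arrays, and 14 of the 18 on the array were tested. All 14 were positive in CA1 VC against wild type, with a median of 1.56 and none past the test. At 5 weeks 13 of 14, all but Cx3cr1, were positive relative to never-induced hippocampus (median 1.81). Their summed linear signal was 18591 to 22333 on the never-induced arrays, 19256 and 19452 (1 week), 34290 and 38242 (2 weeks), and 70090 (5 weeks) off dox. It was 28909 on the reversed array, 28429 in wild-type CA1 and 80624 and 74442 in CA1 VC. Markers at the floor included Fcer1g on all 3 never-induced arrays and in wild-type CA1, while Csf1r was between 10.80 and 12.61 on every array.

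At 1 week the median of the 14 tested markers stood at -0.13 and -0.07 relative to never-induced hippocampus, and Adcy7 at 0.77 and 0.39. Of the untested markers, Fcgr3 read 8.22 and 8.05 at 1 week against 6.55 to 7.22 on the never-induced arrays. Itgam read 8.21 and 6.24 against 6.04 to 6.17, and Fcer1g and Ptprc were at the floor on both 1 week arrays. At 5 weeks the marker median was 1.81 and Adcy7 was at 1.20. On the wild-type CA1 array the marker median was 0.47, and on the CA1 VC arrays 1.93 and 2.07, whereas Adcy7 was at -1.81 in wild type and -0.03 and -0.11 in VC. Within CA1 both Adcy7 and the marker median were higher on the VC arrays than on the wild-type array, where Adcy7 lay at the floor. The part of microglia in the Adcy7 difference was not tested.

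**Figure D2:**
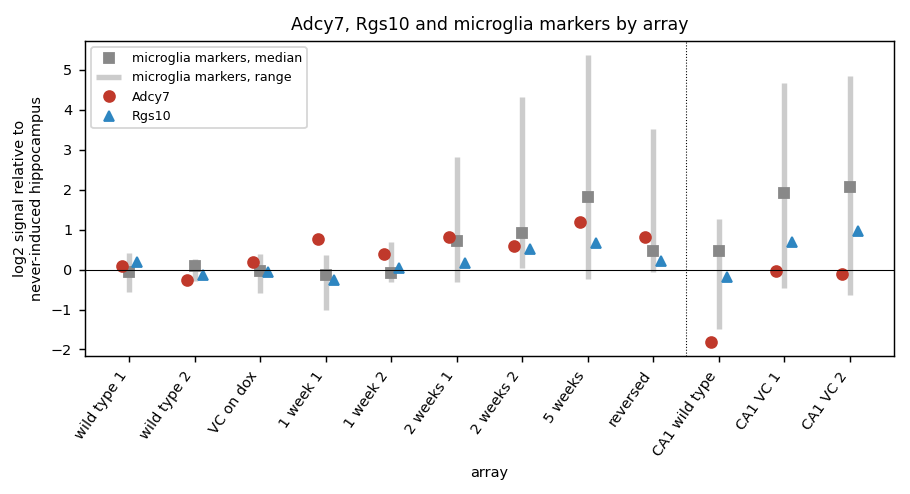
Log2 signal of Adcy7 (circles), Rgs10 (triangles) and 14 microglia markers (squares for the median, bars for the lowest to highest marker) on each array, relative to the mean of the 3 never-induced hippocampal arrays. At 1 week Adcy7 is at 0.77 and 0.39 with marker medians of -0.13 and -0.07. In CA1 it is at -1.81 in wild type with a marker median of 0.47. In CA1 VC it is at -0.03 and -0.11 with marker medians of 1.93 and 2.07.

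No other cyclase passed the test for VP16-CREB. Adcy4, a cyclase of the same beta-gamma-stimulated class, read 7.63 in wild-type CA1 and 8.47 and 8.82 in CA1 VC, a difference of 1.02 ± 0.31 (limma, adjusted p = 0.268), and in hippocampus its difference was -0.08 ± 0.19. Adcy9, a widely expressed cyclase little affected by forskolin, read 12.42 in wild-type CA1 and 11.78 and 11.58 in CA1 VC, a difference of -0.74 ± 0.25 (limma, adjusted p = 0.337). In both genes the VC arrays lay on the same side of the wild-type array, and neither passed. The other Adcy9 probe set (92527_at) gave -0.88 ± 0.46 in CA1 and -1.22 ± 0.30 at 5 weeks (limma, adjusted p = 0.182). Adcy8, a calmodulin-stimulated cyclase of neurons, ranged from 6.79 to 9.16 over the hippocampal arrays, and its 2 arrays at 2 weeks, 6.79 and 8.73, were 1.93 apart, the widest gap between replicates of any tested member. Its average effect was -0.44 ± 0.41 (limma, adjusted p = 0.756).

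Adcy2, another neuronal cyclase, read 12.70 in wild-type CA1 and 12.57 and 12.14 in CA1 VC, and its effect in CA1 minus that in hippocampus was -0.41 ± 0.29 (limma, adjusted p = 0.989). Adcy6, a calcium-inhibited cyclase, had its clearest induction value at 5 weeks, -0.38 ± 0.24 (limma, adjusted p = 0.894). These differences were within 2 standard errors of 0.

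No protein kinase A gene passed the test for VP16-CREB. On their brightest probe sets all 4 tested genes had negative average effects, between -0.27 and -0.10. Prkaca, the C alpha catalytic subunit, had an average effect of -0.17 ± 0.17 (limma, adjusted p = 0.780), and Prkacb, the C beta subunit, had -0.19 ± 0.14 (limma, adjusted p = 0.669). Prkar1b, the neuronal RI beta regulatory subunit, had -0.27 ± 0.18 (limma, adjusted p = 0.646), and Prkar1a had -0.10 ± 0.12 (limma, adjusted p = 0.823). In CA1 the low values came from CA1 VC array 2. Prkar1b read 13.71 in wild type, 13.69 in VC array 1 and 12.80 in VC array 2, and Prkaca read 12.72, 12.66 and 12.05 in the same order. VC array 1 thus lay close to wild type for both genes on these probe sets and VC array 2 well below. The other Prkar1b probe set, 101927_at, read 11.55 in wild-type CA1, 11.20 in VC array 1 and 11.90 in VC array 2. In hippocampus it read 11.64 to 12.02 on the never-induced arrays and 11.47 to 12.09 on the induced ones.

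Other members also differed between the CA1 VC arrays, and a gap within a pair does not show which of its arrays is off. The CA1 VC arrays differed by more than 0.5 for 15 of the 44 members, against 2 members for the wild-type pair, 2 for the 1 week pair and 7 for the 2 weeks pair. The median gap over members was 0.29 between the CA1 VC arrays, beside 0.36 for all probe sets. The widest was Gnas at 1.06. On their brightest probe sets Gnas, Gnao1, Gnb1, Prkaca and Prkar1b were all lower on VC array 2 than on both other CA1 arrays. Other tested probe sets of these genes were highest on VC array 2: 104414_at and 100388_at (Gnao1), 94854_g_at and 94853_at (Gnb1) and 101927_at (Prkar1b). The Gnao1 probe set 161902_f_at was lowest there. Other members, such as Gnai1, Gng12, Pde4b, Pde8a and Rgs5, were higher on VC array 2 than on both, on their brightest probe sets. The share of all probe sets with a gap over 0.5 was not counted.

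Of the anchoring proteins, which tether protein kinase A to membranes and organelles, 3 of 9 were tested, and 0 of 3 passed. On their brightest probe sets all had negative effects in hippocampus, in CA1 and in the average. Akap8l, a nuclear relative of Akap8, read 12.09 in wild-type CA1 and 11.58 and 10.91 in CA1 VC, a difference of -0.85 ± 0.34 (limma, adjusted p = 0.435), and its average effect was -0.57 ± 0.20 (limma, adjusted p = 0.296). Akap8, a nuclear anchor for the kinase, had an average effect of -0.53 ± 0.26 (limma, adjusted p = 0.505), and its 2 weeks arrays, 9.34 and 10.57, were far apart. Its other tested probe sets gave -0.10 and -0.18 on average, and -0.09 and 0.01 in CA1. Akap1, which places the kinase at mitochondria, had -0.24 on average (limma, adjusted p = 0.608). Of its other probe sets 97367_at gave -0.26 (limma, adjusted p = 0.665) and 97369_g_at 0.50 ± 0.27 (limma, adjusted p = 0.545). In CA1 alone the brightest gave -0.41, 97367_at -0.45 and 97369_g_at 1.39 ± 0.46, which did not pass either.

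Among the phosphodiesterases, 0 of 7 tested genes passed, and their average effects lay between -0.17 and 0.12. Pde4b, a cAMP-specific enzyme inhibited by rolipram, had the largest positive one, 0.12 ± 0.26 (limma, adjusted p = 0.916), and its 2 arrays at 1 week, 10.20 and 9.35, spanned the whole never-induced range of 9.47 to 9.86. Pde1a, a calmodulin-dependent enzyme that acts on cAMP and cGMP, read 8.32 to 8.83 on the never-induced arrays, 9.22 and 8.77 after 1 week, 8.48 and 7.87 after 2 weeks, then 9.12 after 5 weeks. It thus lay on both sides of the never-induced range, with a difference of 0.63 ± 0.33 at 5 weeks (limma, adjusted p = 0.802). Pde1b, of the same class, had the largest negative average effect, -0.17 ± 0.12 (limma, adjusted p = 0.685), and was -0.23 ± 0.13 in induced hippocampus (limma, adjusted p = 0.999). Pde8a, a cAMP-specific enzyme, was -0.56 ± 0.27 at 2 weeks (limma, adjusted p = 1), and it passed the filter on 2 arrays alone, as did the cGMP-specific Pde9a.

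No G protein subunit passed the test for VP16-CREB: 0 of 5 alpha, 0 of 3 beta and 0 of 5 gamma genes tested passed. Gnai3, an inhibitory alpha subunit, read 10.47 and 10.45 in wild type, 10.29 on dox, 10.93 and 10.78 after 1 week, 10.51 and 11.13 after 2 weeks, then 10.49 after 5 weeks. The induced and never-induced arrays did not overlap, but the gap between 10.47 and 10.49 was small, and the 5 weeks array was the lowest of the induced ones. The difference was 0.37 ± 0.16 (limma, adjusted p = 0.999). The CA1 arrays read 10.40 (wild type), 10.43 and 10.58 (VC), a difference of 0.11 ± 0.27.

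Gnao1, the abundant Go alpha subunit of brain, had an average effect of -0.26 ± 0.18 (limma, adjusted p = 0.664), Gnas had -0.19 ± 0.21 (limma, adjusted p = 0.801), and Gnai2, an inhibitory subunit, had 0.07 ± 0.16 (limma, adjusted p = 0.925). Gng12, a widely expressed gamma subunit, had 0.29 ± 0.14 (limma, adjusted p = 0.505), and the neuronal Gng3 had -0.14 ± 0.20 (limma, adjusted p = 0.859). The beta genes were within 0.11 of 0 on average, Gnb2 lying farthest out at -0.11 ± 0.12 (limma, adjusted p = 0.802).

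The RGS genes, which speed GTP hydrolysis on alpha subunits, differed in both directions with VP16-CREB, and 0 of 10 passed. Rgs10, a small RGS protein abundant in microglia and also found in neurons, read 10.22 and 9.91 in wild type, 9.99 on dox, 9.76 and 10.07 at 1 week, 10.21 and 10.56 after 2 weeks, then 10.71 after 5 weeks. The wild-type CA1 array read 9.85, and the CA1 VC arrays read 10.73 and 10.99. The arrays at 1 week lay within or below the never-induced range and the 5 weeks array lay above it, as did both CA1 VC arrays over the wild-type one. The difference in CA1 was 1.01 ± 0.35 (limma, adjusted p = 0.343), at 5 weeks 0.67 ± 0.24 (limma, adjusted p = 0.508), and between 5 weeks and 1 week 0.79 ± 0.25 (limma, adjusted p = 0.465). Its probe set 161765_f_at gave 0.21 ± 0.33 in CA1. Relative to never-induced hippocampus, Rgs10 and the microglia marker median were both highest on the 5 weeks array and the CA1 VC arrays. On the wild-type CA1 array the marker median was 0.47 and Rgs10 -0.18, and on the reversed array 0.46 and 0.22. The part of microglia in the Rgs10 values was not tested.

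Rgs11, a member of the subfamily that pairs with Gnb5, had the largest negative difference of the tested members in CA1. It read 11.43 in wild-type CA1 and 10.56 and 9.86 in CA1 VC, a difference of -1.22 ± 0.32 (limma, adjusted p = 0.184), and its average effect was -0.75 ± 0.18 (limma, adjusted p = 0.141). Without CA1 VC array 1 it passed in both, at -1.57 in CA1 (limma, adjusted p = 0.0386) and -0.92 in the average (limma, adjusted p = 0.0418). In hippocampus the never-induced arrays were between 10.43 and 10.71 and the induced ones between 9.90 and 10.49, so the ranges overlapped, and the wild-type CA1 array was the highest of all 12. Rgs7, of the same subfamily, read 10.25 and 10.68 at 2 weeks and 10.44 at 5 weeks, all below the never-induced range of 10.91 to 11.07, while the 1 week arrays, 10.85 and 11.17, lay on both sides of it. Its difference was -0.50 ± 0.18 at 2 weeks (limma, adjusted p = 0.999) and -0.52 ± 0.23 at 5 weeks (limma, adjusted p = 0.696).

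Rgs14, known for limiting plasticity in CA2 neurons, was 12.30 at 5 weeks against 12.77 to 12.90 in never-induced hippocampus, a difference of -0.51 ± 0.21 (limma, adjusted p = 0.629), but 1 week array 1 was nearly as low at 12.38 and both 2 weeks arrays were above 12.90. Rgs2, whose promoter holds 2 cores, read 9.44 to 9.67 on never-induced arrays, 9.23 and 9.65 after 1 week, 9.31 and 9.36 after 2 weeks, then 9.93 after 5 weeks, and its difference between 5 weeks and 1 week was 0.49 ± 0.24 (limma, adjusted p = 0.822). Rgs16 read 10.28 in wild-type CA1 and 9.48 and 10.06 in CA1 VC (-0.51 ± 0.29; limma, adjusted p = 0.597). Rgs19, an RGS protein of Gi alpha subunits, was 10.93 at 5 weeks against 10.08 to 10.63 in never-induced hippocampus (0.58 ± 0.26; limma, adjusted p = 0.706). Rgs5, a marker of pericytes, was 8.15 at 5 weeks against 8.88 and 8.40 at 1 week (-0.49 ± 0.28; limma, adjusted p = 0.936), and Rgs3, which acts on Gi and Gq alpha subunits, was -0.26 ± 0.16 at 1 week (limma, adjusted p = 0.969).

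**Figure D3:**
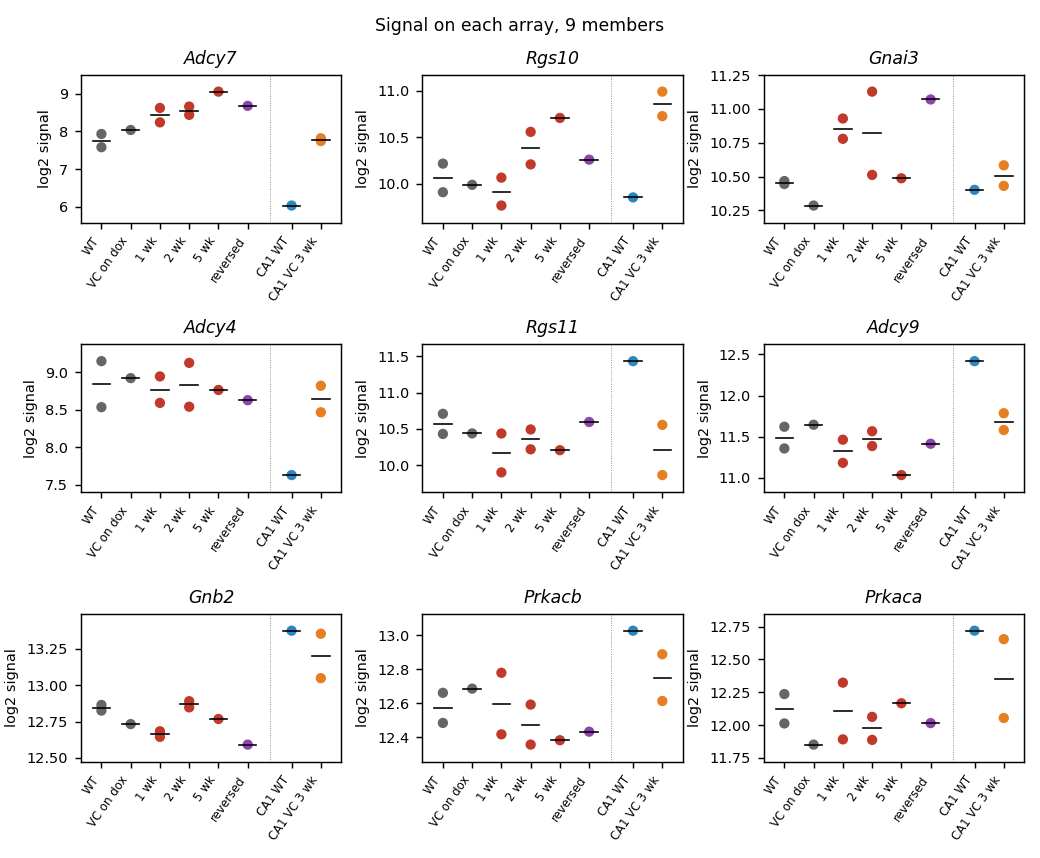
Log2 signal of 9 members on each array, with a point for each array and a line at the mean of each group. Each panel has its own axis, which does not start at 0; Adcy7 runs from the floor of 6.04 in wild-type CA1 to 9.06 at 5 weeks, and the wild-type CA1 array is the highest of all for Rgs11, at 11.43.

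By time off dox, 0 of 44 members passed at 1 week, against 0.0283% of all probe sets, 0 at 2 weeks, against 0.156%, and 0 at 5 weeks, against 0.99%, all in limma. The members with an unadjusted limma p under 0.05 numbered 1, 2 and 4 in that order. As shares these were 2.27%, 4.55% and 9.09%, against 5.01%, 4.46% and 7.3% of all probe sets. Adcy7 had the largest positive difference of the members at each time, 0.58 ± 0.20 (1 week), 0.70 ± 0.20 (2 weeks) and 1.20 ± 0.25 (5 weeks) (limma, adjusted p = 0.969, 0.618 and 0.0834). Between 5 weeks and 1 week 0 of 44 members passed in limma, against 0.637% of all. An unadjusted limma p under 0.05 was found for 3 members (6.82%), against 6.85% of all. The Adcy7 difference there was 0.62 ± 0.26 (limma, adjusted p = 0.712), so a change with time was not shown for it.

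In the reversed mice 0 of 44 members passed against never-induced hippocampus in limma, against 0% of all probe sets. An unadjusted limma p under 0.05 was found for 2.55% of all probe sets and for 2 members (4.55%). These were Adcy7, at 8.68 within the induced range of 8.24 to 9.06, with a difference of 0.83 ± 0.29, and Gnai3, at 11.07 near the top of its induced range, with 0.67 ± 0.26 (limma, adjusted p = 1 for each). Creb1 on the same array, at 7.10 on 102672_g_at, lay between the never-induced and the induced arrays. On 102671_at it read 7.68, close to the highest never-induced array at 7.66. This is 1 array with no replicate. VC mice kept on dox were compared with wild type to check the silent line, and 0 of 44 members passed in limma, against 0% of all probe sets. There 0 members had an unadjusted limma p under 0.05, against 1.41% of all. The largest negative difference there was Adcy8 at -1.07 ± 0.68 and the largest positive Gng3 at 0.42 ± 0.27, and Adcy7 had 0.28 ± 0.27. The myomegalin gene Pde4dip had -0.22 ± 0.22.

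Between CA1 and whole hippocampus far more members differed than with VP16-CREB, although not a larger share than among all genes. In limma 15 of 44 members passed (34.1%), 9 higher and 6 lower in CA1, against 35.9% of all probe sets. The median difference of the members was 0.16 and that of all probe sets -0.13, and 61.4% of members but 40.4% of all probe sets were positive. The arrays of the regions did not overlap for 7 members (15.9%), against 24.4% of all. All 3 CA1 arrays and only wild-type array 1 of the hippocampus were deposited at the lower of 2 scales, so region and deposited scale can hardly be told apart. With the scale as a block all 15 kept their sign and 1, Adcy7, passed, against 4.07% of all probe sets. Without the 5 weeks array, or without VC on dox, 9 members passed.

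On their brightest probe sets Gnb1, Gnb2, Gnai2 and Gnao1 were higher in CA1, while the inhibitory alpha genes Gnai1, at -0.50, and Gnai3, at -0.13, did not pass. Gnb1, a G beta subunit, ran from 12.14 to 12.93 over the 9 hippocampal arrays (median 12.71) and read 13.70, 13.89 and 12.98 on the CA1 arrays, in the order wild type, VC 1 and VC 2. All CA1 arrays lay above all hippocampal ones, and the difference was 0.90 ± 0.21 (limma, adjusted p = 0.01). The other 2 tested Gnb1 probe sets went the other way, -0.63 ± 0.27 and -0.60 ± 0.34, so the direction of this gene is not settled. Gnb2, another beta subunit, ran from 12.59 to 12.89 (median 12.77) in hippocampus and read 13.37, 13.35 and 13.05 in CA1, again without overlap, a difference of 0.50 ± 0.12 (limma, adjusted p = 0.00948). Gnb5, the atypical beta subunit, had a difference of 0.05 and did not pass.

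Gnai2 ran from 13.79 to 14.28 (median 13.92) in hippocampus and read 14.62, 14.86 and 14.27 in CA1, so VC array 2 touched the hippocampal range. Its difference was 0.60 ± 0.16 (limma, adjusted p = 0.0172), and its other probe sets gave 0.66 and 0.36, the same sign. Gnao1 ran from 13.62 to 14.08 and read 14.74, 14.67 and 13.79, a difference of 0.61 ± 0.18 (limma, adjusted p = 0.0268). VC array 2 again lay inside the hippocampal range, and of the other Gnao1 probe sets 104414_at gave 0.84 while 100388_at and 161902_f_at gave -0.72 and -0.47.

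Gnas, which encodes the stimulatory alpha subunit, was lower in CA1. It ran from 15.04 to 15.44 (median 15.13) in hippocampus and read 14.61, 14.77 and 13.71 in CA1. No array overlapped, and the difference was -0.79 ± 0.21 (limma, adjusted p = 0.0148), with VC array 2 lowest by a wide margin. Of the gamma genes 0 of 5 passed, the largest negative being Gng10 at -0.30 ± 0.13 (limma, adjusted p = 0.0883) and the largest positive Gng3 at 0.18 ± 0.20.

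Of 7 cyclases, 3 were lower and 1 higher in CA1, a comparison in which 35.9% of all probe sets passed. With the scale block only Adcy7 of these passed. Adcy6 ran from 10.26 to 10.79 (median 10.51) in hippocampus and read 9.94, 9.92 and 9.84 in CA1, arrays close together and all below hippocampus, with a difference of -0.63 ± 0.15 (limma, adjusted p = 0.00905). Adcy7 was lower, with a difference of -1.32 ± 0.18 (limma, adjusted p = 0.000688), a value that holds the wild-type array at the floor, and -1.42 with the scale block (limma, adjusted p = 0.0487). Adcy4 was lower, with a difference of -0.70 ± 0.18 (limma, adjusted p = 0.0148), and of its CA1 arrays 7.63 (wild type) and 8.47 lay below the hippocampal range of 8.53 to 9.15 and 8.82 inside it. Adcy9 was higher by 0.62 ± 0.15 (limma, adjusted p = 0.00993), and its CA1 arrays, 12.42, 11.78 and 11.58, partly overlapped the hippocampal range of 11.03 to 11.64. Its probe set 92527_at gave 0.36 ± 0.27 and did not pass (limma, adjusted p = 0.312). The neuronal Adcy8 gave 0.33 ± 0.41 (limma, adjusted p = 0.549).

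Of the kinase subunits, Prkaca was higher in CA1, with hippocampal arrays from 11.85 to 12.32 (median 12.01) and CA1 arrays at 12.72, 12.66 and 12.05. VC array 2 lay inside the hippocampal range, and the difference was 0.49 ± 0.17 (limma, adjusted p = 0.0442). Prkacb had 0.33 ± 0.14 (limma, adjusted p = 0.0790) and Prkar1b 0.17 ± 0.18 (limma, adjusted p = 0.478). Prkar1a was below every hippocampal array on all 3 CA1 arrays, at 14.29, 14.30 and 13.99 against 14.32 to 14.56, but its difference of -0.22 ± 0.12 did not pass (limma, adjusted p = 0.160).

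Of the anchors, Akap1 was higher by 0.45 ± 0.14 (limma, adjusted p = 0.0352), whereas 97369_g_at was lower, at -1.38 ± 0.27 (limma, adjusted p = 0.00377), and 97367_at gave 0.27 (limma, adjusted p = 0.280), so its direction is not settled either. Akap8 was lower, with CA1 arrays at 9.87, 8.88 and 9.59 and hippocampal arrays from 9.34 to 10.66, a difference of -0.75 ± 0.26 (limma, adjusted p = 0.0451). Its other tested probe sets gave -0.52 and -0.34, the same sign. Akap8l gave 0.17 ± 0.20 (limma, adjusted p = 0.524).

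Of the phosphodiesterase symbols, Pde4b was lower in CA1, with CA1 arrays at 8.67, 8.65 and 9.58 and hippocampal arrays from 9.20 to 10.20 (median 9.56). The first 2 lay below every hippocampal array and VC array 2 at the hippocampal median, and the difference of -0.73 ± 0.26 was just past the threshold (limma, adjusted p = 0.049). Pde6d, the prenyl-binding protein, was higher without overlap, at 10.89, 10.78 and 10.56 against 10.25 to 10.44 (0.43 ± 0.11; limma, adjusted p = 0.0135). Pde1a gave 0.36 ± 0.28 (limma, adjusted p = 0.337). Among the RGS genes only Rgs8, a neuronal RGS protein of Gi and Go, passed, with 11.04, 11.10 and 10.85 in CA1 against 10.57 to 10.85 in hippocampus. Its lowest CA1 array lay just above the highest hippocampal one, and the difference was 0.35 ± 0.12 (limma, adjusted p = 0.0409). Rgs11 gave 0.43 ± 0.18 (limma, adjusted p = 0.0883), Rgs14 0.16 ± 0.18 (limma, adjusted p = 0.497) and Rgs3 -0.15 ± 0.14 (limma, adjusted p = 0.424). Rgs10 and Rgs19 did not pass on their brightest probe sets, but 161765_f_at of Rgs10 was higher by 0.76 ± 0.19 (limma, adjusted p = 0.012) and 103605_g_at of Rgs19 lower, at -0.54 ± 0.11 (limma, adjusted p = 0.00379).

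**Figure D4:**
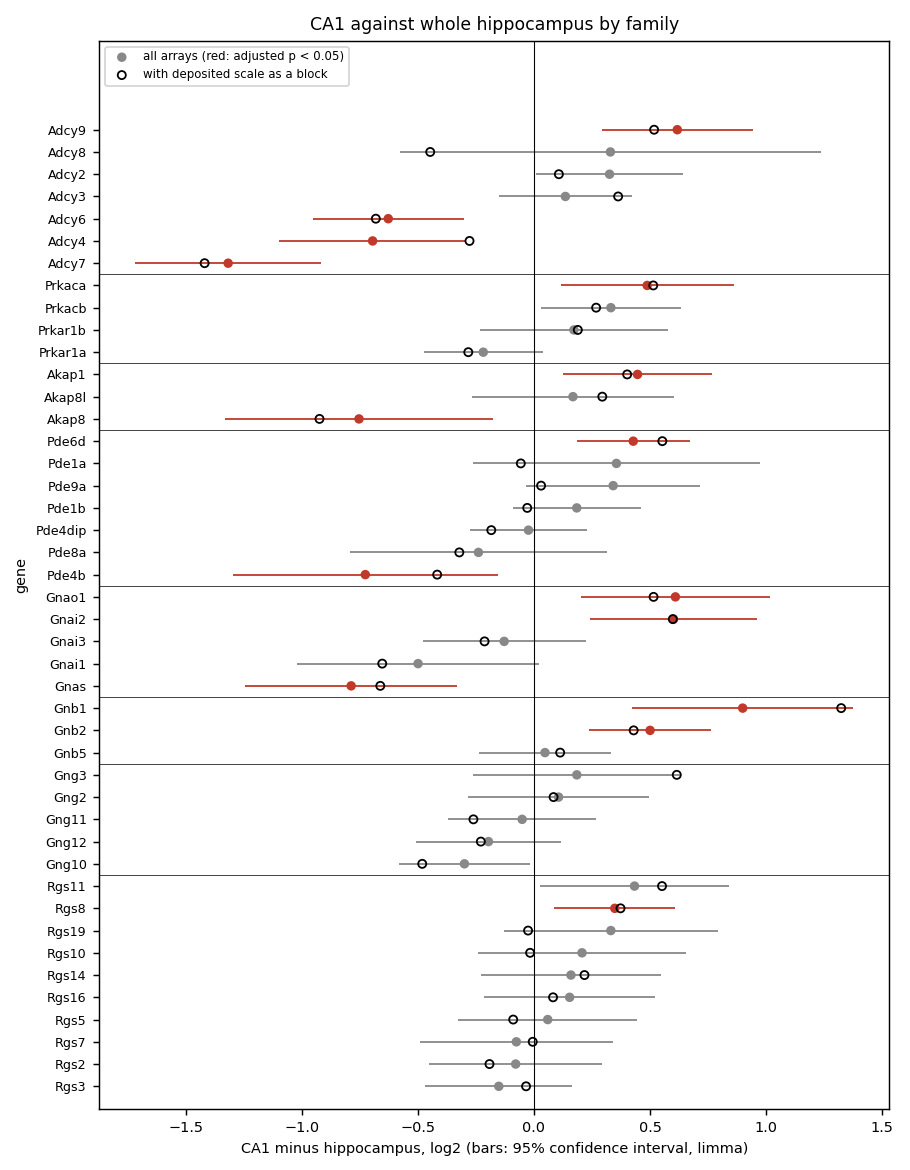
Log2 difference of CA1 minus hippocampus for the 44 tested members by family, with 95% confidence intervals from limma, members past an adjusted p of 0.05 in red, and open circles for the fit with a block for the deposited scale. The 15 red members keep their side of 0 in both fits, from Adcy7 at -1.32 to Gnb1 at 0.90.

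The other genes of the pathway were counted in the same way. Of 4 alpha subunits outside the rule, 3 receptor kinases and arrestins, 8 kinase inhibitors, substrates and other cAMP effectors, and 3 effectors of the phospholipase C and potassium channel branches that were tested, 0 passed in any comparison of induced with uninduced mice, and of 5 genes for CREB and its partners only Creb1 rose, the gene whose protein VP16-CREB is built on. Between CA1 and hippocampus Gna11 and Gna12 were higher, as were Pkig, Atf4 and Crebbp. Pkia, an inhibitor of the protein kinase A catalytic subunits, was lower with the largest difference of its list, -1.72, reading 10.10, 9.66 and 10.58 in CA1 and 11.45 to 12.10 in hippocampus. Ppp1r2, Arpp19, Plcb1 and Kcnj9 were also lower.

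The other 20 members did not lie above the median of their array on 2 arrays and were not tested. Akap4 and Pde1c were at the floor on all 12 arrays, Akap7 and Rgs9 on 10 each, and Rgs6 on 7. Rgs9, an RGS protein of striatum, was above the floor only in wild-type CA1 at 6.94 and CA1 VC array 1 at 7.05. Gnaq, the Gq alpha subunit, ran from 7.28 to 8.50, and Rgs4, an RGS protein of cortical and hippocampal neurons, from the floor on 4 arrays to 8.88 on 1 week array 1. Prkar2a, the RII alpha regulatory subunit, was also highest on 1 week array 1, at 8.86, and at the floor in wild-type CA1. Gnb3 was between 7.64 and 8.39 on all hippocampal arrays and at the floor on 2 of the 3 CA1 arrays, and Gnb4 was at the floor in wild-type CA1 alone. The remaining untested members were Akap12, Akap17b, Akap2, Akap9, Gnasas1, Gng4, Pde6a, Pde6b, Pde6g and Pde7a, with no signal above 8.85. Of these, Pde6a, a subunit of the rod photoreceptor phosphodiesterase, read 7.31, 8.03 and 8.05 on the CA1 arrays and 8.07 to 8.68 on the hippocampal arrays, so the regions did not overlap, but the difference was not tested.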

How the data were processed

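RNA from 12 samples was measured on 12 Affymetrix MG-U74Av2 arrays. The deposited values are linear intensity; GCOS, the Affymetrix software, appears in the submitters' processing notes, its version and algorithm in none of the sources used. The deposited trimmed mean (2% off each end) was about 500.3 on 4 arrays and 3002 on 8. Each array was rescaled to 1000, values were floored at the 20th percentile (65.7) and log2 was taken. Of 12422 probe sets that are not controls, 7069 lay above the median of their array on at least 2 arrays and were tested. Symbols came from the platform annotation: 10833 of the probe sets had 1 symbol, 396 several and 1193 none.

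limma 3.58.1 was run in R 4.3.3 (lmFit, eBayes, two-sided, Benjamini-Hochberg over all tested probe sets, threshold 0.05) on fits with 5, 7 and 8 levels over all arrays, for 11 comparisons. An array alone in its group was taken to vary as the replicated arrays do. Nothing in the labels says whether pools shared mice, and equal replicate numbers do not pair samples. The fit was tested on simulated data. CA1 against hippocampus is the mean of wild-type CA1 minus never-induced hippocampus and CA1 VC minus induced hippocampus. The number of arrays limits the precision.

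The members and lists were chosen with earlier results of these data known. Named are members past the threshold, the 4 smallest p in each direction in each comparison, the largest difference of each family in each direction in CA1 against hippocampus and in the average, and members known as central in hippocampus. Prkar2a, Gnb3 and Rgs9, among others that were not tested, are named to account for every member. Alternatives changed the floor, filter, scaling, probe set choice, eBayes settings, scale block, replicate block and arrays left out.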

Additional observations from a re-analysis of the deposited data

How the results depend on the processing

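In 8 of the 11 comparisons the count of members past the threshold was 0 under every setting that gave a value. In CA1 VC against wild type and in the average effect the count of 1 (Adcy7) became 0 with the deposited scale as a block, with trend and robust settings, with 50 added in place of the floor, with the stricter filter (above the median on 6 arrays, which leaves Adcy7 out) and with the values as deposited. Leaving out 1 array gave 0 to 1 in CA1 and 0 to 2 in the average. Adcy7 was not tested without 2 weeks array 1 or 5 weeks. Without CA1 VC array 1 Rgs11 passed, at -1.57 in CA1 (limma, adjusted p = 0.0386), in place of Adcy7, and at -0.92 in the average (limma, adjusted p = 0.0418), beside Adcy7. In CA1 against hippocampus the count of 15 became 1 with the scale block, 44, all lower, with the values as deposited, and 0 in an alternative added after seeing the data. The last sets 1 wild-type CA1 array against wild-type array 1, with the spread taken from the CA1 VC pair, so it has fewer samples; the median of its 42 tested members was 0.03 and that of all probe sets -0.09. Leaving out 1 array gave 9 to 20, the lowest without 5 weeks or VC on dox. As deposited, the 2 scales differ by region, which by construction moves all probe sets (median -2.28) and says nothing of these members, whose values became Adcy9 -1.54, Akap1 -1.71, Gnai2 -1.55, Gnao1 -1.54, Gnb1 -1.25, Gnb2 -1.65, Pde6d -1.73, Prkaca -1.67 and Rgs8 -1.81. With the mean of a gene's probe sets Akap1 was -0.22 and Gnb1 -0.11. Other causes were not tested. Without the only wild-type CA1 array the comparisons that use it gave no value.

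Arrays of the same replicate number did not deviate together: of 6 correlations over 4 groups, from -0.23 to 0.20, 1 was over 0.1. With a replicate block on the numbered arrays, the members past the threshold numbered 0 in induced hippocampus, at 1 week and at 2 weeks, as without it.

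The limits are the single arrays of wild-type CA1, 5 weeks, VC on dox and reversed, the overlap of region with deposited scale, and dim signal: 15 of 64 members were at the floor on at least 1 array.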
